A study of Danio rerio with 4 samples.

Results

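The comparison is of 2 interval lists from wild-type zebrafish embryos at the late blastula stage, the intervals in which Sox2 chromatin immunoprecipitation was called enriched and those called in Input chromatin. Their members were taken by sample label, which gave 6129 Sox2 and 1901 Input intervals, 8030 of the 22907 intervals in the 4 lists of the series. Sox2 was precipitated with an anti-Sox2 antibody from untreated wild-type embryos, and Input DNA came from wild-type embryos with no antibody. The embryos were raised at 28.5 °C and fixed with 1% PFA, and 20000000 nuclei were pooled per late blastula sample (2000000 at the 512-cell stage), so each value is an average over many whole embryos. The remaining lists, used only for overlaps, are of Pou5f1-Flag at late blastula and at the 512-cell stage, precipitated with an anti-Flag antibody from MZspg embryos, which lack Pou5f1 function of both maternal and zygotic origin and had been injected with Pou5f1-Flag mRNA. Each group held 1 sample, so no difference between Sox2 and Input has a replicate check, and no test between them was possible. The intervals in brackets below are exact 95% binomial intervals over listed intervals or genes (for medians, over order statistics), and they cover counting error only. They take listed intervals as independent, although neighbours can lie close together.

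Sox2 belongs to the SoxB1 group of HMG-box transcription factors. The SoxB1 proteins act around the start of zygotic transcription, hold ectoderm in a neural-competent state and often bind DNA beside Pou factors. A peak caller places intervals where reads pile up. At a protein bound at a point, forward and reverse reads lie on opposite flanks in near equal numbers and the pile is narrow. Input chromatin has no antibody enrichment, so its intervals show where reads pile up without one.

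Of the 5313 genes that either list names beside an interval, 47 (0.885%) had 10 or more Sox2 intervals and 0 Input intervals, and transcriptional regulators of the early embryo were among them. The Hes-related repressor gene her9 had 14 Sox2 and 0 Input intervals. The Spalt zinc finger gene sall4 had 17 and 0, the Myc family gene mycn 13 and 0, the notochord homeobox gene noto 11 and 0, and the Groucho co-repressor gene tle3a 11 and 0. Such intervals count also for the gene on their other side. For example, 12 of the 17 at sall4 counted for zgc:112994, 12 of the 13 at mycn for smek1 and 10 of the 11 at noto for cdc25b. The top count, 19, was listed between nop16, a gene of ribosome assembly, and rbm41, an RNA-binding protein gene. The 5 genes with the most Input intervals had from 1 Sox2 interval (nadsyn1) to 59 (hpdb). Among them zdhhc21, a palmitoyltransferase gene, had 91 Input and 3 Sox2 intervals. Sox2 intervals were also more numerous than Input intervals, seldom wide, more often balanced between strands and more evenly spread over the chromosomes. Bounds on strand imbalance differed between the lists. Input was then held to bounds like those of Sox2 on strand imbalance and a filter p-value, but not on false discovery rate. The Sox2 strand share stayed higher in each bin of reads. The exact intervals overlapped below 200 reads, which does not show equal shares, and did not overlap from 200 reads.

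The Sox2 list held 3.22 intervals for each Input interval. Merging overlapping intervals within a list left 6128 and 1901. The 2 lists were not held to the same bounds. The largest false discovery rate listed was 2.83% for Sox2 and 23.5% for Input. The largest Wilcoxon filter p, a p-value the authors give per interval, was 0.0499 for Sox2 and 1 for Input, and 726 of the Input intervals (38.2%, 36.0 to 40.4) had a p under 0.05. The largest normalized difference, the strand imbalance as a fraction of the reads, was 0.492 for Sox2 and 1 for Input. Interval numbers in the Sox2 list ran to 7362, and those of Input to 1901, which is the number listed. With the Input list held to a p under 0.05, the ratio was 8.44. With both lists held to a false discovery rate of at most 1%, 4965 Sox2 and 1003 Input intervals remained, a ratio of 4.95. In all, 742542 reads lay in Sox2 intervals and 966327 in Input intervals. Library depths were not among the values used here.

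Sox2 intervals were narrow and of similar width. Their median was 346 bp (342 to 350), the middle 50% lay between 284 and 433 bp, and 45 of 6129 (0.734%, 0.536 to 0.981) were over 1000 bp wide. Input intervals had a median of 459 bp (438 to 469) with the middle 50% between 279 and 852 bp, and 424 of 1901 (22.3%, 20.5 to 24.2) were over 1000 bp. The narrow ends of the lists matched, with 34.5% of Sox2 and 37.9% of Input intervals under 300 bp. Wider Sox2 intervals became steadily fewer, while Input widths had a gap. Of Sox2 intervals 14.6% and of Input intervals 1.68% were from 350 to 399 bp wide, and from 400 to 449 bp these shares were 12.8% and 2.21%. From 450 to 499 bp they were 8.35% and 10.1%. The order of the medians depended on the bound: Input intervals with a Wilcoxon filter p under 0.05 had a median width of 308 bp, below that of Sox2. The share over 1000 bp kept its order, with 12.7% (10.3 to 15.3) of those Input intervals. With both lists held to a false discovery rate of at most 1%, the median widths were 376 bp for Sox2 and 786 bp for Input.

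**Figure D1:**
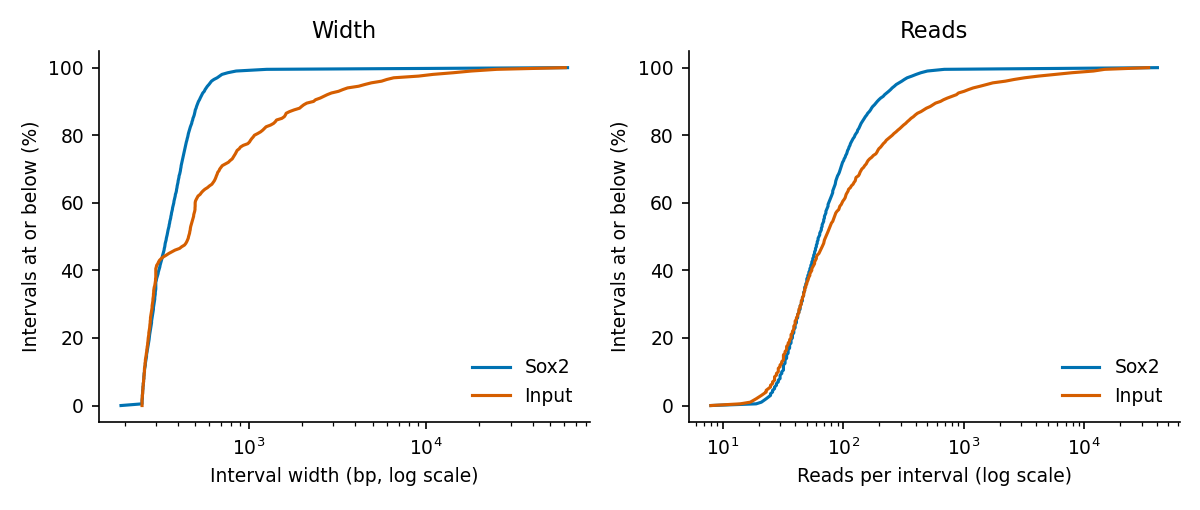
Share of intervals at or below each width (left, bp) and each read count (right), both on log axes, for the 6129 Sox2 and 1901 Input intervals. The curves run together up to about 300 bp and 50 reads and then part, with 22.3% of Input and 0.734% of Sox2 intervals over 1000 bp.

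The read counts of the lists had nearly equal lower parts and different upper parts. The median was 63 reads per Sox2 interval (62 to 64; lowest 8, highest 40493) and 72 per Input interval (68 to 76; lowest 8, highest 34243). The first quartiles were 41 and 40 reads. Intervals of 200 or more reads made up 9.41% (8.69 to 10.2) of the Sox2 list and 23.9% (22.0 to 25.9) of the Input list. Of the reads in Sox2 intervals 24.7% fell in intervals over 1000 bp, against 88.5% of the reads in Input intervals. Per 100 bp of width the medians were 18.3 reads for Sox2 (18.1 to 18.5) and 17.5 for Input (17.1 to 17.9), the opposite order. With Input held to a Wilcoxon filter p under 0.05 its median was 56 reads, again below Sox2. At a false discovery rate of at most 1% in both lists, the medians were 75 reads for Sox2 and 169 for Input.

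Median widths were set side by side within bins of reads. Below 50 reads the median widths were 273 bp for Sox2 (n = 2230) and 271 bp for Input (n = 680). From 50 to 99 reads they were 359 and 443 bp, from 100 to under 200 reads 456 and 664 bp, and from 200 reads 578 bp (570 to 590, n = 577) and 1949 bp (1702 to 2069, n = 455). The last bin has no upper end and its reads are not matched: 135 of its Input intervals and 14 of its Sox2 intervals held 1000 or more reads. The Sox2 interval with the most reads among those that did not overlap Input, between b3gnt2b and otx1, a homeobox gene of the head, held its 955 reads in 845 bp, 113 reads per 100 bp. The Input interval between mhc2dgb, a gene of the major histocompatibility complex class II, and an unnamed gene (NM_200957) held 34243 reads in 60997 bp, 56.1 reads per 100 bp. Single intervals went the other way too. An Input interval between hdgfl3 and trpm7 held 33029 reads in 13325 bp, 248 reads per 100 bp.

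Forward and reverse reads were more often in balance in Sox2 intervals, with the lists taken as given and not held to the same bound on strand imbalance. The forward share of reads lay from 40 to 60% in 4844 of 6129 Sox2 intervals (79.0%, 78.0 to 80.0) and in 1270 of 1901 Input intervals (66.8%, 64.6 to 68.9). Over all intervals 49.4% of the Sox2 and 49.5% of the Input reads were forward reads. Since a share over few reads scatters more, the lists were set side by side within bins of reads. Under 50 reads 66.5% of Sox2 (64.5 to 68.5) and 51.0% of Input intervals (47.2 to 54.8) were in that band. From 50 to 99 reads these were 81.2% and 68.7%, and from 100 to under 200 reads 90.2% and 83.1%. From 200 reads they were 97.6% (96.0 to 98.7) and 77.8% (73.7 to 81.5). The Sox2 share was thus higher in each bin of more reads, whereas the Input shares of the last 2 bins had overlapping intervals.

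**Figure D2:**
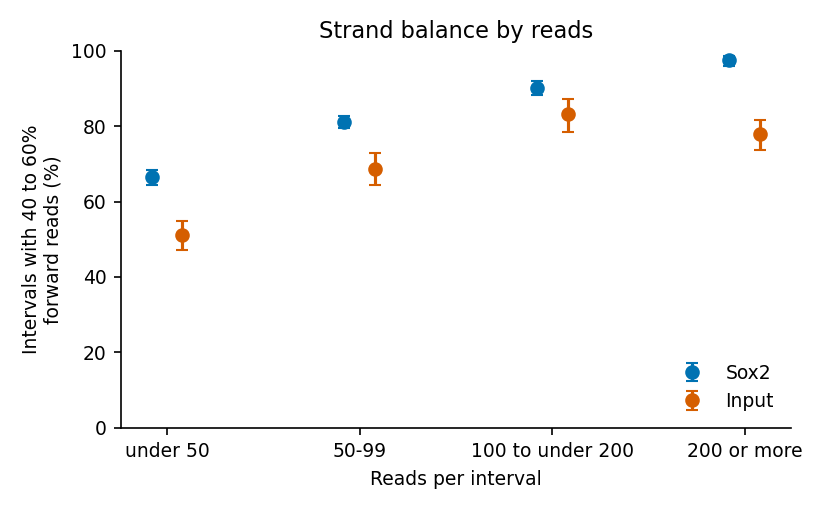
Share of intervals whose forward reads make up 40 to 60% of all reads (y axis, percent), in 4 bins of reads per interval (x axis). Points are the 2 lists and bars exact 95% binomial intervals over intervals. Sox2 goes from 66.5% to 97.6%, and Input lies below it in each bin, at 77.8% in the last. The lists shown were not held to the same bound on strand imbalance. With Input held to a normalized difference of at most 0.5 and a Wilcoxon filter p under 0.05, Sox2 stayed higher in each bin. The exact intervals then overlapped below 200 reads, which does not show equal shares, and did not overlap from 200 reads. False discovery rates were not matched.

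Among Sox2 intervals of 200 or more reads, the furthest from balance lay between cpdp and dynlt5 on chromosome 2 (Zv9, 13838781 to 13839771), with 544 forward and 1357 reverse reads, and it overlapped an Input interval of 516 reads. Next were an interval between jak1, a Janus kinase gene, and pgm1 (110 forward and 223 reverse reads) and one between cyth4b and plxna1b, a semaphorin receptor gene (79 and 158 reads), neither of which overlapped Input. In the Input list the furthest, between naa15b and zgc:153642 on chromosome 1, had 6 forward and 216 reverse reads. No Sox2 interval had under 25% or over 75% forward reads, which follows from its largest normalized difference, while 112 Input intervals (5.89%, 4.88 to 7.05) did. Input was also held to a normalized difference of at most 0.5 and a Wilcoxon filter p under 0.05, bounds chosen after the data were seen. Of its 686 intervals 69.5% (65.9 to 73.0) were then in the band, and 71.6% (61.8 to 80.1) of the 102 with 200 or more reads. Under 50 reads it was 61.7% (55.9 to 67.2), from 50 to 99 reads 73.1% (65.9 to 79.6) and from 100 to under 200 reads 83.5% (75.2 to 89.9). The Sox2 shares in these bins were 66.5% (64.5 to 68.5), 81.2% (79.4 to 82.8) and 90.2% (88.3 to 91.9). The Sox2 share was thus higher in each of these bins. Below 200 reads the exact intervals of the 2 lists overlapped in each bin, which does not show equal shares. From 200 reads the Sox2 share was 97.6% (96.0 to 98.7), and over all its intervals 79.0% (78.0 to 80.0). Neither of these overlapped the Input share. False discovery rates were not matched.

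Sox2 intervals were spread over the 25 chromosomes more evenly than Input intervals. Taking the outermost interval of any list as the end of a chromosome, there were from 3.65 intervals per Mb on chromosome 12 to 5.30 on chromosome 19, a 1.45-fold range. For Input the range was 7.76-fold, from 0.415 per Mb on chromosome 1 to 3.22 on chromosome 9. Chromosome 7 held the most Sox2 intervals (366, 5.97%), and chromosome 9 the most Input intervals (187, 9.84%). The 5 fullest chromosomes held 25.5% of the Sox2 and 42.0% of the Input list. There were 9.40 Sox2 intervals per Input interval on chromosome 1, 4.20 on chromosome 2, 1.71 on chromosome 4, 1.71 on chromosome 20 and 1.36 on chromosome 9. Chromosome medians ran from 56 to 69.5 reads and from 325 to 372.5 bp for Sox2, and from 41.5 to 168 reads and from 280.5 to 817 bp for Input.

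**Figure D3:**
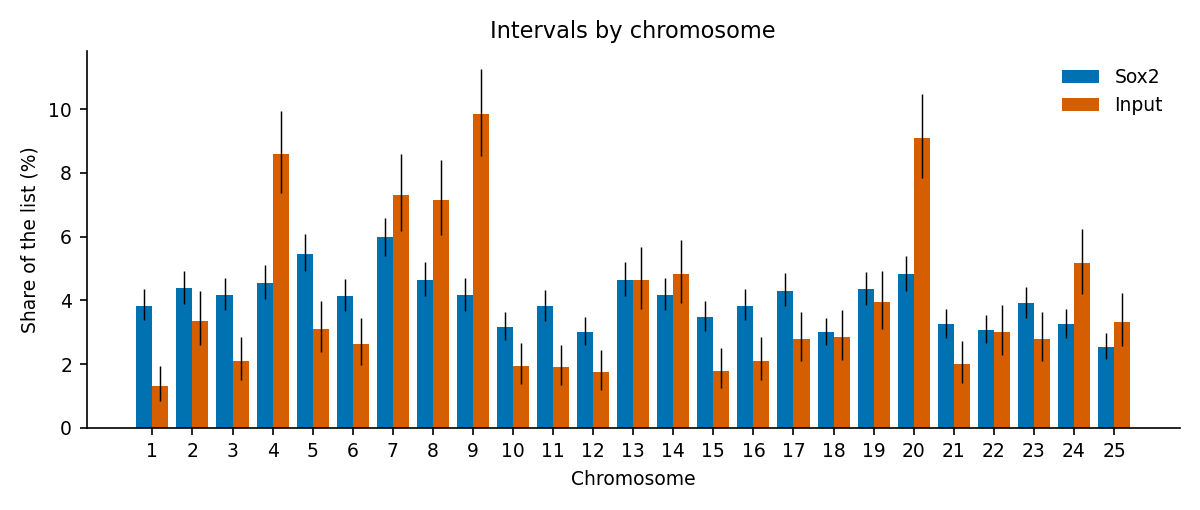
Share of each list on chromosomes 1 to 25 (bars, percent of the list, with exact 95% binomial intervals over intervals). The binomial intervals take each listed interval as independent. Input intervals are packed together, 187 in 26 runs (gaps of at most 10 kb) on chromosome 9, so those of Input are too narrow. Input exceeds Sox2 most on chromosomes 9, 20 and 4, with 9.84%, 9.10% and 8.57% of its list, and is lowest on chromosome 1 with 1.32%.

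Input intervals were packed into few stretches on some chromosomes. Intervals of a list that followed each other with gaps of at most 10 kb were joined into runs. The 187 Input intervals of chromosome 9 formed 26 runs and the 173 of chromosome 20 formed 32, whereas the 163 of chromosome 4 formed 59. Counted as runs, Input ranged from 0.242 per Mb on chromosome 14 to 0.956 on chromosome 4, a 3.95-fold range. Sox2 runs per Mb were not computed. A chromosome held from 117 to 279 Sox2 runs and from 13 to 59 Input runs, and a range over low counts scatters more. Reads were less evenly spread than intervals: 12.7% of the reads in Sox2 intervals were on chromosome 12, which held 3.02% of the intervals, and most of them lay in an interval of 40493 reads between nmt1b and znf281b and one of 38370 reads between mto1 and becn1.

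Neighbouring Sox2 intervals stood far apart, and neighbouring Input intervals close together. The median gap to the next interval was 73636 bp for Sox2 (67027 to 79579, 6103 gaps) and 541 bp for Input (466 to 665, 1875 gaps). Gaps of at most 1 kb made up 5.08% of Sox2 and 56.8% of Input gaps, and gaps of at most 10 kb 25.5% (24.5 to 26.7) and 67.6% (65.4 to 69.7). Gaps over 100 kb made up 45.2% and 26.3%. Within the short gaps the scale differed too: those of at most 10 kb had a median of 2808 bp for Sox2 (2642 to 2982) and 190 bp for Input (151 to 218). With Input held to a Wilcoxon filter p under 0.05, its median gap was 6979 bp, and 52.0% of its gaps were at most 10 kb.

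**Figure D4:**
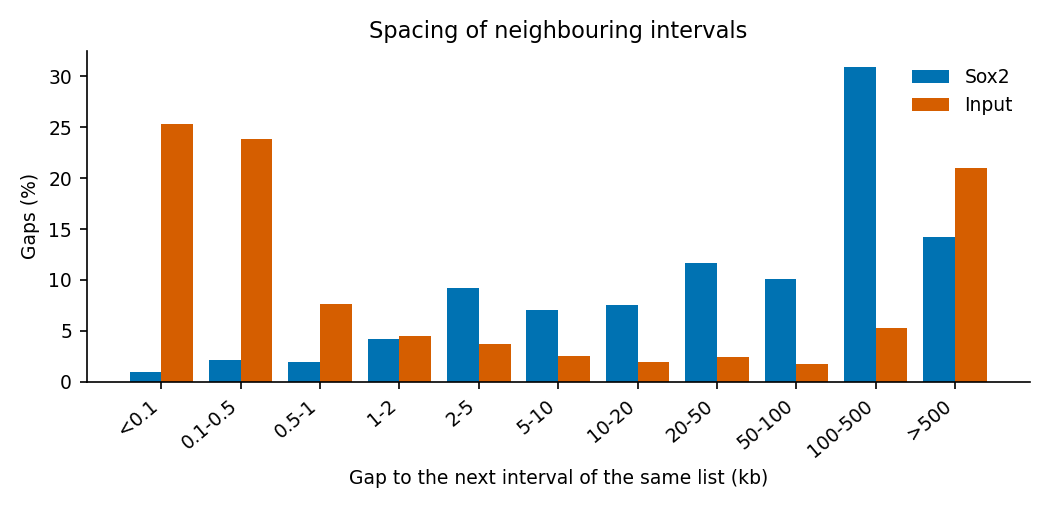
Distribution of gaps between neighbouring intervals of the same list (x axis, kb; y axis, percent of the 6103 Sox2 or 1875 Input gaps). Input gaps are most frequent below 0.5 kb and again above 500 kb (21.0%), and Sox2 gaps from 100 to 500 kb (31.0%).

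Most Sox2 intervals stood alone. By runs, 3641 (59.4%) had no other within 10 kb, 1216 were in pairs, and 1272 (20.8%, 19.7 to 21.8) were in 321 runs of 3 or more. Of the Input list 456 (24.0%) stood alone and 975 (51.3%, 49.02 to 53.6) were in 39 runs of 10 or more, a size that 6 Sox2 runs reached. Sox2 intervals in runs of 3 or more had a median of 81 reads (76 to 85) and 385.5 bp, against 56 reads (55 to 58) and 328 bp for those alone. They overlapped a late blastula Pou5f1-Flag interval in 42.3% (39.6 to 45.1) of cases, against 23.6% (22.3 to 25.1) of those alone, and a 512-cell one in 13.6% (11.8 to 15.6) against 7.61% (6.77 to 8.52). Since reads differ between these sets too, the part of reads in the overlap was not tested. Of the 321 runs, 289 had no Input interval within 10 kb.

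The fullest Sox2 run without Input within 10 kb lay on chromosome 11 (43132111 to 43175923) between her15.2, a Hes-related repressor gene of the Notch pathway, and slmapa. Its 11 intervals held 46 to 334 reads (median 110) over 43.8 kb. The next, of 10 intervals between nop16 and rbm41 on chromosome 21 (36506998 to 36548987), held 37 to 537 reads. At notch3, a Notch receptor gene, 10 intervals of 85 to 274 reads lay within 24.1 kb (chromosome 3, 54180728 to 54204868), and each of them was at most 509 bp wide. These 3 runs had medians from 110 to 120 reads and median gaps from 2233 to 3847 bp.

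Runs of 9 intervals followed. One between arhgap4a, a GTPase-activating protein gene, and NM_001017713 had a median of 175 reads (chromosome 23, 25369688 to 25393215). One between mycb, a Myc family gene, and fam49ba had a median of 148 reads (chromosome 2, 31820412 to 31838629). One between cxcl18b and msx1b, a homeobox gene of the neural plate border, had a median of 50 reads (chromosome 1, 49825008 to 49859215). A run of 8 between met and zgc:113984 (chromosome 25, 35165944 to 35208715) held the interval of 924 reads. Late blastula Pou5f1-Flag intervals overlapped 7 of the 9 intervals at arhgap4a, 6 of the 9 at mycb and 1 of the 9 at msx1b, and 512-cell ones 0 of the 9 at each of these 3 runs. Over all Sox2 intervals the shares were 28.8% and 9.32%. The runs differ in reads too, so nothing is read from these counts.

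The other 3 Sox2 runs of 10 or more intervals stood where Input was packed. The fullest of all, 14 intervals on chromosome 20 (55768597 to 55797477) at zgc:165600 and NM_001098396, had 30 Input intervals within 10 kb. A run of 13 on chromosome 5 beside tek, a receptor tyrosine kinase gene, and fubp3 had 22, and a run of 10 between pbx3b, a Pbx homeobox gene, and hpdb on chromosome 8 had 15. Their median gaps, from 600 to 1128 bp, were shorter than in any of the runs without Input named above. The fullest Input runs were of another order: 70 intervals between NM_001076572 and abhd18 on chromosome 14 (47119729 to 47230040) with a median gap of 86 bp and 0 Sox2 intervals within 10 kb, and 66 between sik1, a salt-inducible kinase gene, and cbsb on chromosome 9 with 1. Then came 52 at klf2b, a Krüppel-like factor gene, on chromosome 19 with 3 Sox2 intervals, 51 at zgc:165600 on chromosome 20 with 9, and 50 between zdhhc21 and nadsyn1 on chromosome 7 with 0.

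Sox2 intervals that overlapped Input by at least 1 bp numbered 205. They were 3.34% of the list but held 26.5% of its reads and 14.8% of its bases. From the other side, 273 of the 1901 Input intervals (14.4%, 12.8 to 16.0) overlapped Sox2. Wide intervals overlapped most often. All 9 Sox2 intervals over 5000 bp overlapped Input, as did 30 of the other 36 that were over 1000 bp wide (83.3%, 67.2 to 93.6) and 166 of the 6084 narrower ones (2.73%, 2.33 to 3.17). The 10 Sox2 intervals with the most reads all overlapped Input, and 28 of the first 100 did. By chromosome the share ran from 0 of 256 on chromosome 3, for which the exact interval reaches 1.43%, to 49 of 285 on chromosome 8 (17.2%, 13.0 to 22.1).

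The 205 had a median of 87 reads (74 to 106) and 467 bp (421 to 500), against 62 reads (61 to 64) and 344 bp (340 to 348) for the other 5924. In the strand band were 81.0% (74.9 to 86.1) of the 205 against 79.0% (77.9 to 80.0) of the others. These shares were not set side by side within bins of reads, so like balance is not shown. Reads per 100 bp in a Sox2 interval were 1.02 times (0.881 to 1.09) those of the Input intervals it overlapped, by the median, and ranged from 0.101 to 5.75 times. These ratios are not scaled to library depth. Late blastula Pou5f1-Flag overlapped 49.3% of the 205 (42.2 to 56.3) and 1665 of the others (28.1%), and 512-cell Pou5f1-Flag 21 (10.2%, 6.45 to 15.2) and 550 (9.28%). Since the 205 were wider and held more reads by the median, the part of width and reads in these overlaps was not tested.

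All 9 Sox2 intervals over 5000 bp lay over Input intervals, with more reads than Input in 7 of them and fewer in 2. The interval of 62762 bp between nmt1b and znf281b (chromosome 12, 16866716 to 16929477) held 40493 Sox2 reads, and the 4 Input intervals it overlapped held 17861 reads over 62038 bp. Between mto1 and becn1, a gene of autophagy (chromosome 12, 15437175 to 15481126), 38370 Sox2 reads stood over 1 Input interval of 19928 reads. Between them4 and rxrbb, a retinoid X receptor gene (chromosome 16, 20238766 to 20278453), the values were 30389 and 14888 reads. In all 5 Sox2 intervals over 20000 bp, which also include those at met and at lztfl1, the Sox2 reads were 1.93 to 2.27 times the Input reads. Together these 5 held 19.8% of the reads in all Sox2 intervals. Both intervals between lzts2a and eif3s10 on chromosome 13 went the other way. The one of 7013 bp held 2527 Sox2 reads over an Input interval of 15515 bp and 8558 reads, 0.295 times the Input reads, and the one of 5607 bp held 0.544 times the Input reads. In the other direction, of the 84 Input intervals over 5000 bp, 30 (35.7%, 25.6 to 46.9) overlapped a Sox2 interval. The widest Input interval, at mhc2dgb, overlapped 1 Sox2 interval of 673 reads over 2638 bp, and the Input interval of 29301 reads between lpar1, a lysophosphatidic acid receptor gene, and musk overlapped 0. The Input interval with the most reads per 100 bp, 248, lay between hdgfl3 and trpm7 on chromosome 18.

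Genes were next compared by the intervals listed beside them. An interval counts for each of the genes the authors name on either side, whatever the distance. A gene beside a long stretch in which the authors name no other gene can thus gather more. The 72 Sox2 intervals listed between met and zgc:113984 span 17109 kb. Whether such stretches hold genes that the authors do not name was not checked. Of 5313 genes named in either list, 5003 (94.2%) had a Sox2 interval, 909 (17.1%) an Input interval and 599 both. Sox2 intervals without Input intervals were listed at 4404 genes (82.9%), at 2250 of them once. Among all named genes, 85 (1.6%) had 10 or more Sox2 intervals, and 47 of these (0.885% of all named genes) had 0 Input intervals. At 5 or more Sox2 and 0 Input intervals there were 434 genes (8.17%). Of the named genes 71 (1.34%) had 10 or more Input intervals, and 2 of these (0.0376% of all) had 0 Sox2 intervals.

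The 47 genes had 380 Sox2 intervals beside them in all and lay on 17 chromosomes, with 6 genes on chromosome 14. Neighbours share intervals: 4 pairs of genes had the very same ones, so the 47 genes stand for 43 sets. More genes lay just below the threshold than at it. With 0 Input intervals, 18 genes had exactly 10 Sox2 intervals, among them id1, a Bmp target that encodes a helix-loop-helix inhibitor, foxd3, a forkhead gene of pluripotent cells and neural crest, and its neighbour atg4c. Exactly 9 were listed at 37 genes, among them vox, a ventral homeobox repressor gene, zic2a, a zinc finger gene of the neural plate, and f9a, a clotting factor gene.

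The Hes-related genes her15.2, her9 and her6 were among the 47. Beside her15.2 the 14 Sox2 intervals held 27 to 334 reads (median 102) between 43103456 and 43321680 on chromosome 11, and 13 of them lay between it and slmapa. Copies of her15 are near identical, so the gene the accession stands for is uncertain. Beside her9 the 14 intervals held 30 to 376 reads (median 71.5; chromosome 23, 23525781 to 23749624), 9 of them towards noc2l, a histone-binding repressor gene, and 5 towards agrn, which encodes the matrix protein agrin. All 14 at her9 had 40 to 60% forward reads, beside 79.0% of all Sox2 intervals. Of the 14, 1 overlapped late blastula Pou5f1-Flag, beside 28.8% of all Sox2 intervals. Beside her6 the 10 intervals held a median of 82.5 and at most 441 reads, and 5 of them were in that strand band. Other genes of the 47, such as smek1 and foxd3, had all their intervals in the band, and nothing is read from these strand counts.

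Of the genes described next, mycn is in the list of SoxB1 and pluripotency factors and noto in the Nodal and mesendoderm list, whereas sall4 and cdc25b are in none. Beside sall4, 17 intervals held 26 to 322 reads (median 102; chromosome 23, 38264106 to 39086770), of which 12 were towards zgc:112994. Late blastula Pou5f1-Flag overlapped 8 of the 17 and 512-cell Pou5f1-Flag 4. Over all Sox2 intervals the shares were 28.8% and 9.32%, and overlap was more frequent among intervals of more reads. Nothing is therefore read from the counts at sall4. Beside mycn, 13 intervals held 29 to 195 reads (median 76) within 181 kb on chromosome 20, and 12 of them counted also for smek1, a phosphatase regulator gene. Between cdc25b, which encodes a phosphatase that starts mitosis, and noto 10 intervals were shared. The 12 at cdc25b lay within 50.1 kb (chromosome 13, 14787104 to 14837244) and held 33 to 186 reads, and the 11 at noto 33 to 316. These were among the closest packed of the 47 genes, with 23.9 intervals per 100 kb at cdc25b and 21.4 at noto. The densest was notch3, with 41.4 per 100 kb.

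From the Wnt list tle3a alone was among the 47, and dact1, tgif1, insm1b and gadd45gb.1 are in none of the lists. Beside tle3a 11 intervals held 35 to 876 reads (median 94; chromosome 18, 19828095 to 20184071), the highest single value among the 47 genes. Late blastula Pou5f1-Flag overlapped 8 of the 11, beside 28.8% of all Sox2 intervals, and nothing is read from this count. Beside dact1, which encodes a Dishevelled-binding protein, 11 intervals held 24 to 182 reads over 451 kb on chromosome 17. Beside tgif1, a TALE homeobox repressor gene, 11 held 17 to 257 reads (median 103; chromosome 24). Beside insm1b, a zinc finger gene of early neurons, 12 held 29 to 225 reads (median 61.5; chromosome 17). Beside gadd45gb.1, of the Gadd45 stress and growth arrest family, 12 held 35 to 221 reads (chromosome 21). All of them were in the strand band, beside 79.0% of all Sox2 intervals, and nothing is read from this count.

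The remaining genes of the 25 with the most intervals were likewise in none of the gene lists. The top count, 19 intervals of 36 to 537 reads (median 74), was listed between nop16, a gene of ribosome assembly in the nucleolus, and rbm41, an RNA-binding protein gene, over 580 kb of chromosome 21 (36297564 to 36877548). Beside rnasel3, a ribonuclease gene, 15 intervals held 28 to 489 reads over 1662 kb of chromosome 14, of which 14 lay towards NM_001048055. Beside pard6gb, which encodes a Par6 polarity protein, 15 intervals held a median of 52 reads, and 13 of them counted for dtnbp1b as well. The others were rnf220a, a ubiquitin ligase gene, with 12 intervals (33 to 272 reads), arhgap4a with 11 (28 to 217 reads, median 149, within 52.5 kb), trip4, a transcriptional coactivator gene, with 11 (29 to 246 reads), zgc:103482 with 11, and NM_001017713 with 12 on 2 chromosomes.

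**Figure D5:**
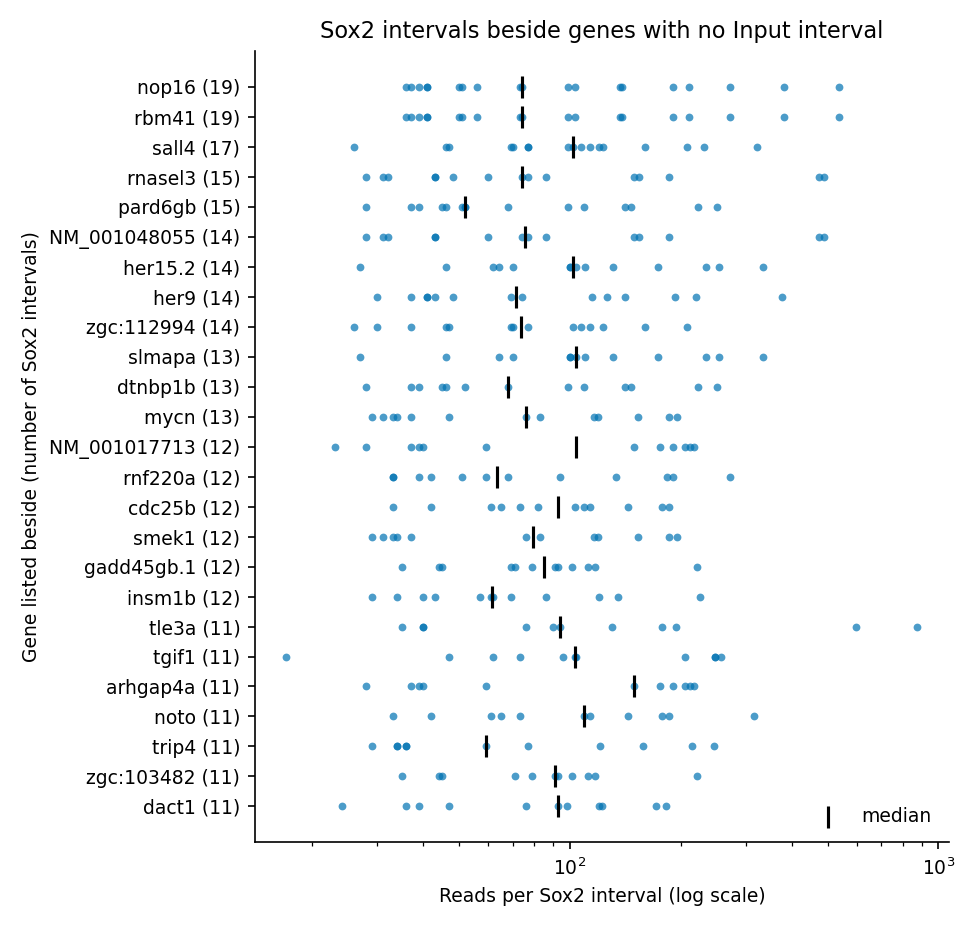
Reads of each Sox2 interval (points, log x axis) listed beside the 25 genes with the most Sox2 intervals among those with 0 Input intervals (y axis, number of intervals in brackets), with the median as a bar. Medians lie from 52 at pard6gb to 149 at arhgap4a, and neighbouring genes share points.

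Beyond these 25, the 47 genes held cadherin family members (cdh15 and pcdh18b with 11 intervals, pcdh19 with 10), trim8b and chmp6b with the same 11, gpc4, a glypican gene of convergence movements, irx7, an Iroquois gene, emx2, a forebrain homeobox gene, and msx1b, each of the last 4 with 10. Median reads per gene ranged from 51 at sash1a to 166.5 at id1. The span of the intervals ranged from 24.1 kb at notch3 to 2030.5 kb at trim8b and chmp6b, with a median of 348 kb over 46 genes. The nearest Input interval lay from 92.7 kb (trip4) to 7119 kb (NM_001048055) away, with a median of 1332 kb. The 47 genes were picked for having no Input interval beside them, which by itself keeps Input away. Distances at other genes were not set beside these, so nothing about the 47 genes is read from the distances. At least 1 interval overlapped late blastula Pou5f1-Flag at 46 of the 47 genes, the exception being zgc:103482, and 512-cell Pou5f1-Flag at 29. Each of these genes has 10 or more intervals that could overlap, and of all Sox2 intervals 28.8% and 9.32% did, so nothing about the 47 genes is read from these counts. When runs were counted in place of intervals, a unit chosen after the data were seen, 3 of the 47 genes had 10 or more (pard6gb with 12, dtnbp1b and rnf220a with 10).

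The 380 intervals held more reads by the median than other Sox2 intervals free of Input. Their medians were 77 reads (70 to 88) and 380.5 bp, against 62 reads (60 to 63) and 342 bp for the other 5544. Of the 380, 80.3% (75.9 to 84.1) were in the strand band, against 78.9% (77.8 to 79.9), not set side by side within bins of reads. Late blastula Pou5f1-Flag overlapped 133 (35.0%, 30.2 to 40.03) against 27.6% (26.5 to 28.8), and 512-cell Pou5f1-Flag 39 (10.3%, 7.40 to 13.8) against 9.22% (8.47 to 10.0). Within bins of reads the intervals of the late blastula shares overlapped: 14.2% (8.32 to 22.0) against 10.8% (9.50 to 12.2) below 50 reads, 25.6% (18.0 to 34.5) against 24.1% (22.2 to 26.0) from 50 to 99 reads, 44.2% (34.0 to 54.8) against 47.5% (44.4 to 50.7) from 100 to under 200 reads, and 81.8% (69.1 to 90.9) against 74.2% (70.0 to 78.1) from 200 reads.

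Of the 85 genes with 10 or more Sox2 intervals, 38 had Input intervals too. Several missed the rule by 1 Input interval. These included shha, which encodes the ligand Sonic hedgehog (16 Sox2 intervals), tbxta, the notochord gene Brachyury (15), marcksl1b (17), noc2l (18), mycb (12) and spry2, an Fgf feedback inhibitor gene (10). Others lay in stretches full of Input intervals. Sox2 and Input intervals numbered 11 and 38 at fn1a, a fibronectin gene, 10 and 29 at cdh2, which encodes N-cadherin, and 13 and 31 at flrt2 and at ints7. The largest Sox2 counts of all, 72 at met and zgc:113984 and 64 at suz12a, a Polycomb gene, came with 57 and 12 Input intervals and were listed over 17109 and 8173 kb, so that there were 0.421 and 0.783 Sox2 intervals per 100 kb. The genes with the most Input intervals were hpdb (96 Input and 59 Sox2), NM_001098396 (94 and 32, on 2 chromosomes), pbx3b (93 and 57), zdhhc21 (91 and 3) and nadsyn1 (89 and 1).

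Genes of 10 developmental lists, of which 196 were named beside either list, made up 10 of the 47. The lists and the threshold were chosen with earlier results of these data known. That is 5.10% of the named members, beside 0.885% of all named genes, and at 5 or more Sox2 and 0 Input intervals 65 of the 196 (33.2%) beside 8.17%. The median was 4 Sox2 intervals per named member, beside 1 over all named genes. Counted in runs, none of the 10 list members among the 47 reached 10, with from 1 run at notch3 to 9 at her9. The neural plate and head list held 3 of the 47 (her9, irx7 and her6) among 40 named members, and the list of SoxB1 and pluripotency factors 2 (mycn and foxd3) among 14. The Wnt list held tle3a among 21, the Nodal and mesendoderm list noto among 19, the Bmp list id1 among 21, the Notch list notch3 among 17 and the adhesion list pcdh18b among 14. None of the named members of the Fgf, hindbrain and guidance lists (15, 16 and 19) were among the 47. With 0.885% of all named genes among the 47, nothing is read from a 0 in lists of this size. At 5 or more Sox2 and 0 Input intervals the Fgf list had 6 of 15, the hindbrain list 4 of 16 and the guidance list 5 of 19. The Wnt list had 11 of 21, including axin2, a feedback inhibitor of Wnt signalling, with 9, and the Notch list 3 of 17.

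In the 3 comparison lists of ribosomal, proteasomal or mitochondrial, and late differentiation genes, 57 members had a symbol in the gene table. Of these, 16 were named beside either list and 0 were among the 47. The share over all named genes was 0.885%, so with 16 named members nothing is read from the 0. At 5 or more Sox2 and 0 Input intervals there was 1 of the 16 (6.25%), beside 8.17% of all named genes. It was ndufa3, a subunit gene of mitochondrial complex I, with 5. All 16 had a Sox2 interval, and members named beside neither list do not enter these shares, so nothing is read from the 6.25% either. Of the developmental members with a symbol, 196 of 233 were named. Of the 196 named developmental genes, 25 were named beside an Input interval, and of the 16 named comparison genes 2. Over all named genes 17.1% were. The genome was not used here, so the length of the stretch between genes was not set beside these counts.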

How the data were processed

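Chromatin immunoprecipitation with sequencing was carried out by the authors, who deposited 1 peak list per sample. Per the file headers, each interval has counts of all, forward and reverse reads, a length in bp, a percent false discovery rate, the p-value of a Wilcoxon filter, a normalized difference (a fraction of the reads) and a gene accession on each side. All are the authors' values per peak. Per the submitters' processing notes, CASAVA was used. For the aligner, peak caller and thresholds nothing is given in the sources used here. Identifiers name the build Zv9, and starts, deposited counted from 0, are printed counted from 1.

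Widths, reads, strand shares, gaps and overlaps (at least 1 bp) were computed with Python 3.11.15 and pandas 2.3.3, and exact binomial intervals with scipy 1.17.1. The functions were checked on simulated lists. Since each group is 1 sample, no test was made between lists. Accessions were matched to symbols through a RefSeq table of assembly GRCz12tu, used for names alone (94.5% of Sox2 and 92.0% of Input accessions). Named genes were the 25 with the most Sox2 and 0 Input intervals, those with exactly 10 or 9 and most reads, those with the most Input intervals and list members among the 47. Named intervals and runs were those with the most reads, width, strand imbalance or members. Others, such as those of the 47 and 38 genes named as examples, were chosen after their values were seen. The members, gene lists and thresholds were chosen with earlier results of these data known. Whether a position is exonic or intronic was not analysed here. A run of Sox2 intervals that the rule would name is not reported here.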

Additional observations from a re-analysis of the deposited data

How the results depend on the processing

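Of 55 recomputed values for 10 results, 22 stayed within counting error or within 1.5 times of the value given, 28 moved and 5 turned in sign. The joint bound on the filter p and the normalized difference, the share over 1 kb as a result and the counts by runs were added after seeing the data. The Sox2 minus Input difference in median width was -113 bp. It turned to 38 bp with Input held to a Wilcoxon filter p under 0.05, and to 34.5 bp with the normalized difference also held to 0.5. The difference in median reads was -9 and turned to 7 and 6 under the same bounds, and to 0.776 per 100 bp of width. Fewer Input intervals enter under these bounds, which do not hold Input to the false discovery rates of Sox2, and the cause was not tested further. At a false discovery rate of at most 1% these differences were -410 bp and -94 reads, and the width difference among intervals of 50 to 99 reads was -84 bp. The share over 1 kb differed by -21.6 percentage points, by -11.9 and -12.4 under the bounds above, by -40.8 at the stricter false discovery rate and by 0 from 50 to 99 reads. In that bin no interval of either list was over 1 kb, so nothing is read from the 0. The ratio of intervals, 3.22, became 8.44, 8.93 and 4.95 in that order of bounds, and 7.21 in runs. The strand difference of 12.2 points became 9.50 under both bounds. The difference in gaps up to 10 kb, -42.0 points, became -26.5, -28.1 and -46.1, and -46.5 and -36.5 at 5 and 20 kb. The share of Sox2 intervals on Input, 3.34%, became 1.71% and 2.54% under the first bound and the false discovery rate, 1.32% with centres within 100 bp, 4.19% within 1 kb and 2.61% with 50% of the Sox2 interval covered. The 47 genes became 434, 129 and 5 at 5, 8 and 15 intervals and 3 in runs. At the stricter false discovery rate 35 genes passed, 27 of them among the 47. The 10 list members became 21 and 0 at 8 and 15 intervals. No paired analysis was possible because each group holds 1 sample, which also leaves no replicate to leave out.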

Other observations

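Mitochondrial DNA was listed differently by the 2 lists. Input had 14 intervals on it, from position 844 to 16596, with 3659 reads. Sox2 had 2, which share the start at position 1 and end at 191 and 543, with 72 and 181 reads. No Input interval overlapped them. The 14 Input intervals held 31 to 609 reads each, and 1 of them, from 2302 to 2604, had 43 forward and 11 reverse reads.

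On chromosome 4 some genes had many intervals of both lists. At zgc:173619 there were 37 Sox2 and 7 Input intervals, and at fnta, a farnesyltransferase subunit gene, 32 and 28. The 37 at zgc:173619 fell in 34 runs over 6239 kb, and 5 of them overlapped late blastula Pou5f1-Flag and 0 the 512-cell list. At cnga2a, a gene of a cyclic nucleotide-gated channel on chromosome 14, the 10 Sox2 intervals fell in 10 runs over 2257 kb, with 8 Input intervals listed and 0 late blastula Pou5f1-Flag overlaps. Of all Sox2 intervals 28.8% overlapped the late blastula and 9.32% the 512-cell list, and nothing is read from the counts at these genes.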
